A study of Mus musculus with 12 samples.

Results

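The RNA of 9 genes of the phosphoinositide 3-kinase (PI3K), AKT and mTOR pathway was examined in naïve CD8+ T cells after anti-CD3 stimulation and after triggering of LAIR-1, an inhibitory collagen receptor of leukocytes. The genes were chosen by symbol, and 9 of the 14323 symbols in the count table were members: Pik3cd, Pik3r1, Pik3ip1, Akt1, Akt2, Tsc1, Tsc2, Mtor and Rptor. Splenic CD8+ T cells with a naïve surface phenotype were sorted from each of 3 wild type animals. Wells of 100000 cells were kept for 6 h on immobilized antibodies, each at 2.5 µg/ml. The 4 groups each held 3 libraries, 1 per mouse: unstimulated cells received isotype antibody in place of anti-CD3, stimulated cells received anti-CD3, and both kinds of well held either isotype control or anti-LAIR-1. The anti-LAIR-1 antibody was the agonistic clone 2C7. The methods name adult C57BL/6N mice.

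PI3K is a lipid kinase that becomes active at the membrane after antigen receptor and costimulatory signals. Its product recruits and activates the kinase AKT, which inhibits the TSC complex and so releases the small GTPase RHEB to switch on mTOR complex 1 (mTORC1). AKT also keeps FOXO transcription factors out of the nucleus, and in naïve T cells FOXO factors maintain genes of quiescence and lymph node homing. The signals themselves are carried by phosphorylation and lipids, which RNA counts do not measure.

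RNA was sequenced by CEL-seq, a method that reads transcripts close to the poly(A) tail, and library totals ranged from 1781218 to 7725545 counts. The medians were 2304214 and 3548881 for unstimulated cells with isotype and anti-LAIR-1, and 4883760 and 6204054 for stimulated cells in the same order, so that 3 counts corresponded to 0.388 to 1.68 CPM (counts scaled to a common library size). T cell and CD8 markers, of which 7 of 8 were in the table, summed to 3696 to 4201 CPM and 3810 to 4075 CPM in unstimulated cells with isotype and anti-LAIR-1, and to 2003 to 2184 CPM and 2556 to 2919 CPM in stimulated cells. Markers of B cells summed to at most 9.71 CPM in any library and those of dendritic cells to at most 3.33 CPM. Those of myeloid cells, CD4 T cells and NK cells summed to at most 1.63 CPM. The table held 4 of 6 B cell markers (not Ighm or Igkc) and 3 of 4 dendritic cell markers (not Siglech). It held 4 of 7 myeloid markers (not Lyz2, S100a8 or S100a9) and 2 of 4 NK cell markers (not Ncr1 or Gzma). Markers of red cells and platelets reached 172 CPM, and their part in the results was not tested. Genes of the early response to anti-CD3 summed to 193 to 222 CPM in the 6 unstimulated libraries and to 1918 to 2448 CPM in the 6 stimulated ones. The mitochondrial share of the counts averaged 18.8% and 19.7% in the unstimulated groups and 12.1% and 12.4% in the stimulated groups, with isotype and anti-LAIR-1 respectively. The number of members called was the same in each comparison without mitochondrial genes and Rn45s. In these bulk libraries, fewer cells of a type and less RNA per cell cannot be told apart.

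The promoters of 2 members are shown. Pik3ip1 had the largest change of the 9 genes with anti-CD3. For Akt1 alone, a difference between the anti-LAIR-1 responses with and without anti-CD3 passed the main test. That call held in 9 of 21 other settings. Each promoter is 1 RefSeq window of GRCm38.p6, with 250 bases before and 50 bases after an annotated start. The windows are written 5′ to 3′ on the strand of the gene. The windows lie at chr11:3330481-3330780 on the plus strand (Pik3ip1) and at chr12:112674835-112675134 on the minus strand (Akt1). Capitals mark a match to the FOXO core TGTTTAC.
Pik3ip1: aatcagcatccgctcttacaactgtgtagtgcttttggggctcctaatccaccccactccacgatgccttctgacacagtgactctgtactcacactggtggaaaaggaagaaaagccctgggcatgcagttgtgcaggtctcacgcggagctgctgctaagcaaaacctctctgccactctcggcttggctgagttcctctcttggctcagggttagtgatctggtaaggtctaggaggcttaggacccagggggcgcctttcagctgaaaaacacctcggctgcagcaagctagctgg
Akt1: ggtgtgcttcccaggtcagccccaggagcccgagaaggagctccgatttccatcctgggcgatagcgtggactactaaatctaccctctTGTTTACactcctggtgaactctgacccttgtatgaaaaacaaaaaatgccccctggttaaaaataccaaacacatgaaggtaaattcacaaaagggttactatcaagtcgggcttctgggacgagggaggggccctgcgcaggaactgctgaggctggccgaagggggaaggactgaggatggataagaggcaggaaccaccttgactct
The 16 RefSeq windows of the 9 members were searched on both strands for the FOXO core TGTTTAC, the E-box CACGTG, the ETS core CCGGAAG and the KLF core GGGTGTG. The Akt1 window shown held 1 FOXO match, which began at -161 from the start, and the FOXO core was present in 3.65% of 32851 windows of all genes. Another Akt1 window, at chr12:112674227-112674526 and not shown, held 0 matches to any of these motifs. An Mtor window held an ETS match at -237, and a Tsc2 window held ETS matches at -8 and 10 and a KLF match at 34. The ETS core was present in 8.86% of all windows, the KLF core in 7.95% and the E-box in 7.15%. None of these letters stood in the windows of Pik3ip1, Pik3cd or Pik3r1, and matches are given as a description only. The windows of Pik3ip1 and Pik3cd lie inside the gene bounds given below, which are from GENCODE M21. Bases before those outer starts were therefore not searched for these 2 genes.

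To determine how T cell receptor stimulation alters the pathway genes, stimulated and unstimulated isotype libraries were compared. The RNA of the PI3K genes fell most: Pik3ip1 was 22.5-fold lower, Pik3cd 5.64-fold lower and Pik3r1 5.00-fold lower. Akt2 rose 1.32-fold, while Akt1, Tsc1, Tsc2, Mtor and Rptor did not pass the test. Thus 1 member rose and 3 fell of 9, where 35.6% of the 8454 protein-coding genes tested rose and 35.8% fell (edgeR quasi-likelihood F-test, Benjamini-Hochberg adjusted p under 0.05). The median log2 fold change was -0.29 over the 9 members and -0.015 over all genes tested.

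**Figure D1:**
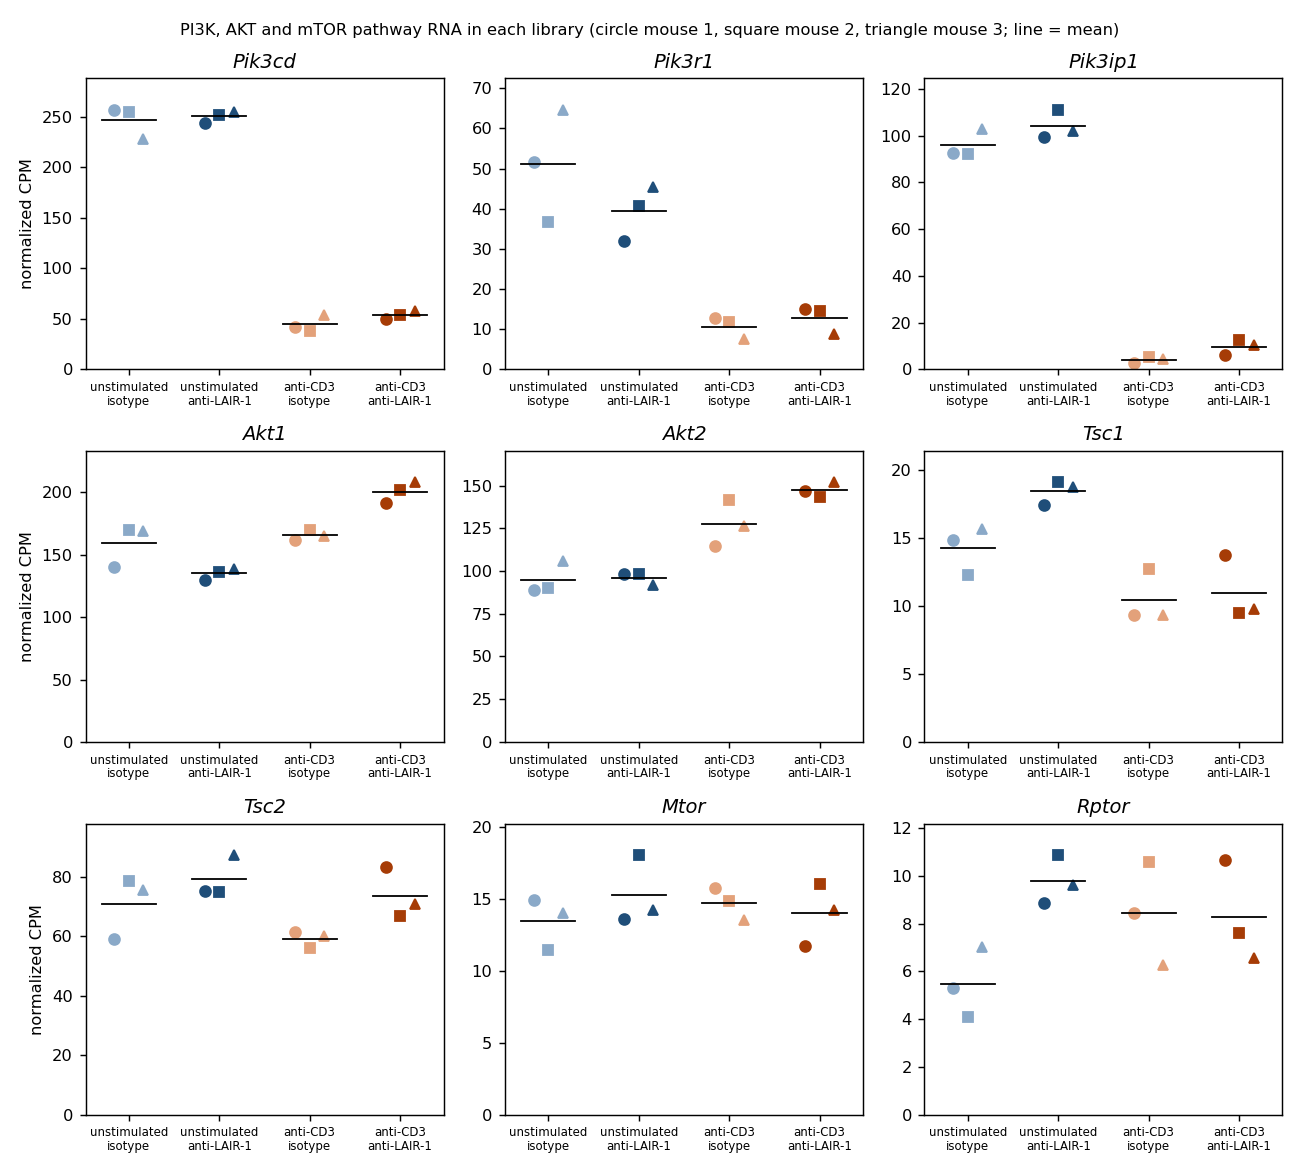
Normalized CPM (vertical axes, linear from 0) of the 9 pathway genes in the 4 groups, with 1 point per mouse and a line at the mean of 3 libraries. Pik3cd, Pik3r1 and Pik3ip1 separate the unstimulated from the stimulated libraries, and the 3 Akt1 values with anti-CD3 and anti-LAIR-1 lie between 191 and 208 CPM, above the other 9.

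Pik3cd encodes p110δ, the catalytic PI3K subunit that predominates in lymphocytes, and lies on chromosome 4 from 149649168 to 149702571 (GRCm38, minus strand). Its level was 257, 254 and 228 CPM in mice 1 to 3 without stimulation and 41.4, 37.9 and 53.9 CPM with anti-CD3. With anti-LAIR-1, it was 244, 252 and 255 CPM without and 49.4, 53.7 and 57.2 CPM with anti-CD3. The stimulated libraries thus lay well below the unstimulated ones under either antibody. On the log2 scale Pik3cd fell by 2.49 with isotype (SE 0.13, edgeR adjusted p = 2.1e-14) and fell by 2.24, or 4.72-fold, with anti-LAIR-1 (SE 0.089, edgeR adjusted p = 5.1e-14).

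Pik3r1, on chromosome 13 from 101680563 to 101768217 (minus strand), encodes the regulatory subunit p85α, which stabilizes and restrains the catalytic subunits. Its level was 51.6, 36.7 and 64.7 CPM without stimulation and 12.7, 11.7 and 7.56 CPM with anti-CD3, both with isotype. Under anti-LAIR-1 the values were 31.9, 40.6 and 45.5 CPM without and 15.1, 14.5 and 8.69 CPM with anti-CD3. Under either antibody, the unstimulated values did not overlap with the stimulated ones. Pik3r1 fell by 2.32 on the log2 scale with isotype (SE 0.22, edgeR adjusted p = 2.5e-09) and by 1.60 with anti-LAIR-1, or 3.03-fold (SE 0.19, edgeR adjusted p = 3.7e-07).

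Pik3ip1 encodes a transmembrane protein that binds p110 and inhibits PI3K in resting T cells, and lies on chromosome 11 from 3330401 to 3342971 (plus strand). Its level was 92.7, 92.3 and 103 CPM without stimulation and 2.72, 5.30 and 4.50 CPM with anti-CD3, both with isotype. Under anti-LAIR-1 it was 99.5, 111 and 102 CPM without and 6.07, 12.5 and 10.6 CPM with anti-CD3. Every stimulated library was thus far below every unstimulated one, and the 3 anti-CD3 libraries with anti-LAIR-1 were above the 3 with isotype. Pik3ip1 fell by 4.49 on the log2 scale with isotype (SE 0.19, edgeR adjusted p = 7.2e-16) and fell by 3.46, or 11.02-fold, with anti-LAIR-1 (SE 0.17, edgeR adjusted p = 9.6e-13). Only 54 of the 8454 protein-coding genes tested with isotype, or 0.639%, had a lower log2 fold change.

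Akt1 and Akt2 encode AKT kinases that act downstream of PI3K. Akt1 (chromosome 12, 112653821 to 112674884, minus strand) was at 140, 170 and 169 CPM without stimulation and 162, 170 and 165 CPM with anti-CD3, both with isotype. These values overlapped, with a log2 fold change of 0.023 (SE 0.10, edgeR adjusted p = 0.853). With anti-LAIR-1, Akt1 was at 130, 136 and 139 CPM without and 191, 202 and 208 CPM with anti-CD3, and these groups did not overlap. Here Akt1 rose by 0.56 on the log2 scale, or 1.47-fold (SE 0.082, edgeR adjusted p = 4.8e-06).

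Akt2 (chromosome 7, 27591552 to 27640826, plus strand) was at 89.0, 89.8 and 106 CPM without stimulation and 115, 141 and 127 CPM with anti-CD3, both with isotype. With anti-LAIR-1 the values were 98.1, 98.2 and 91.8 CPM without and 147, 143 and 152 CPM with anti-CD3. The stimulated libraries were the higher ones in both settings. Akt2 rose by 0.40 with isotype (SE 0.12, edgeR adjusted p = 0.0036) and by 0.61, or 1.53-fold, with anti-LAIR-1 (SE 0.087, edgeR adjusted p = 3.5e-06). With upper quartile normalization the rise of Akt2 with isotype was 0.23 (edgeR adjusted p = 0.0806), the only one of 16 other settings in which it did not pass.

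Tsc1 and Tsc2 encode the subunits of the complex that holds RHEB inactive. Tsc1 (chromosome 2, 28641228 to 28691167, plus strand) was at 14.9, 12.2 and 15.6 CPM without stimulation and 9.37, 12.7 and 9.33 CPM with anti-CD3, both with isotype, so that the groups overlapped in 1 library. With anti-LAIR-1 it was at 17.5, 19.1 and 18.7 CPM without and 13.8, 9.46 and 9.75 CPM with anti-CD3, without overlap. Its change with isotype was -0.47 (SE 0.25, edgeR adjusted p = 0.0910). With anti-LAIR-1, Tsc1 fell by 0.73, or 1.66-fold (SE 0.20, edgeR adjusted p = 0.0028), which was -0.52 after thinning all libraries to the smallest total (edgeR adjusted p = 0.0794).

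Tsc2 (chromosome 17, 24595816 to 24632630, minus strand) was at 58.9, 78.4 and 75.5 CPM without stimulation and 61.4, 56.0 and 60.0 CPM with anti-CD3, both with isotype. With anti-LAIR-1 it was at 75.1, 74.8 and 87.3 CPM without and 83.1, 66.7 and 70.8 CPM with anti-CD3. The groups overlapped in both settings. The log2 fold change was -0.29 with isotype (SE 0.13, edgeR adjusted p = 0.0529) and -0.11 with anti-LAIR-1 (SE 0.11, edgeR adjusted p = 0.399). Without mouse 1 of the unstimulated isotype group, the first of these was -0.42 (edgeR adjusted p = 0.0095). The 3′ end of Tsc2 overlaps 693 bases of Pkd1 on the other strand, and Pkd1 had 0 to 8 counts per library. Whether counting used the strand was not given in the sources used here.

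Mtor encodes the kinase of both mTOR complexes and Rptor the mTORC1 scaffold raptor. Mtor (chromosome 4, 148448611 to 148557683, plus strand) was at 14.9, 11.4 and 14.0 CPM without and 15.7, 14.8 and 13.5 CPM with anti-CD3 in the isotype wells. Under anti-LAIR-1 it was at 13.6, 18.0 and 14.2 CPM without and 11.7, 16.1 and 14.2 CPM with anti-CD3. All 4 groups overlapped. Its log2 fold change with anti-CD3 was 0.079 with isotype (SE 0.23, edgeR adjusted p = 0.769) and -0.14 with anti-LAIR-1 (SE 0.20, edgeR adjusted p = 0.530). Rptor (chromosome 11, 119602905 to 119899576, plus strand) was at 5.30, 4.08 and 7.01 CPM without and 8.47, 10.6 and 6.27 CPM with anti-CD3 in the isotype wells, and at 8.87, 10.9 and 9.64 CPM without and 10.7, 7.60 and 6.57 CPM with anti-CD3 under anti-LAIR-1. The unstimulated isotype libraries held a mean of 13 Rptor counts each. Its log2 fold change with anti-CD3 was 0.60 with isotype (SE 0.34, edgeR adjusted p = 0.115) and -0.22 with anti-LAIR-1 (SE 0.24, edgeR adjusted p = 0.422).

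With anti-LAIR-1, 2 members rose with anti-CD3 and 4 fell, where 36.8% of 8736 protein-coding genes rose and 36.1% fell. This comparison shares the 3 mice but no library with the one under isotype control, and in both comparisons Pik3cd, Pik3r1 and Pik3ip1 fell and Akt2 rose. Upper quartile normalization moved the median of all genes to -0.19 with isotype and -0.23 with anti-LAIR-1. It also lowered the share of called genes that rose from 49.9% to 42.5% and from 50.5% to 40.9%.

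**Figure D2:**
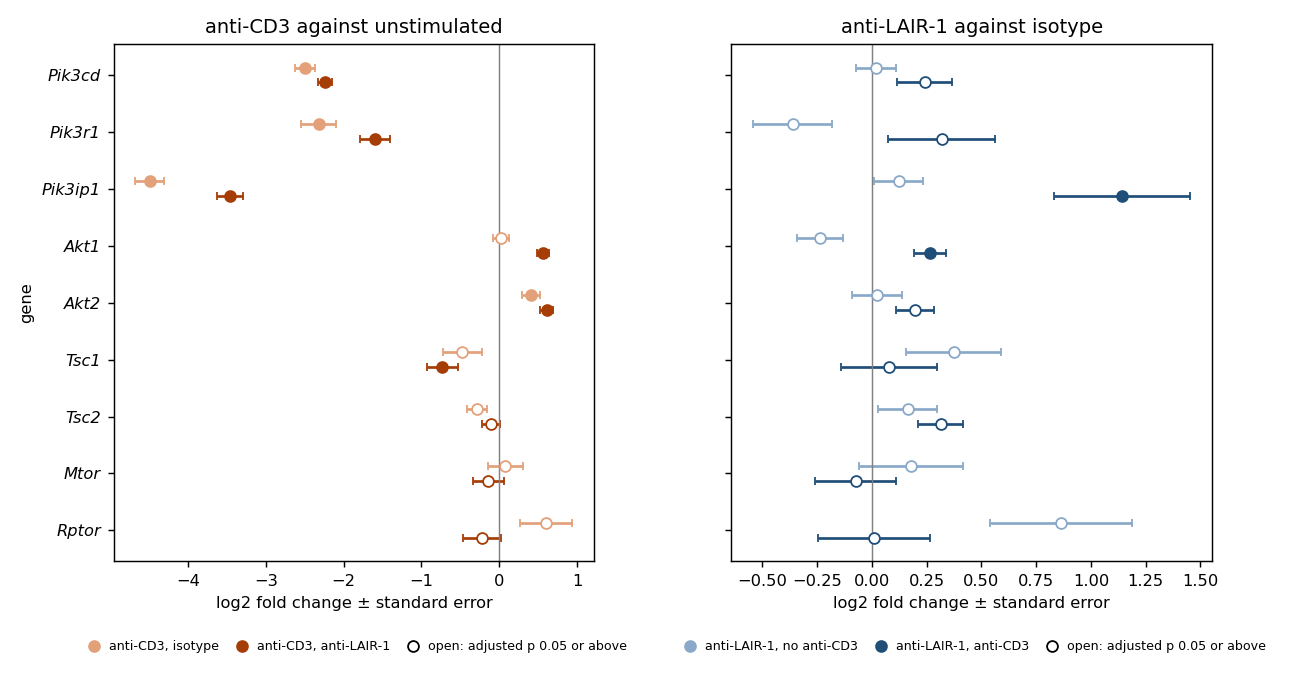
Log2 fold changes (horizontal axes, ± standard error) of the 9 genes with anti-CD3 (left) and with anti-LAIR-1 (right); filled points passed an adjusted p of 0.05 in edgeR. The PI3K genes stand between -4.49 and -1.60 with anti-CD3, and with anti-LAIR-1 the filled points are Pik3ip1 at 1.14 and Akt1 at 0.27, both in the presence of anti-CD3.

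To determine how LAIR-1 triggering alters these genes in stimulated cells, anti-LAIR-1 was compared with isotype in the anti-CD3 libraries. Pik3ip1 rose 2.21-fold and Akt1 rose 1.20-fold, and the other 7 members did not pass the test. These 2 higher and 0 lower of 9 stand beside 3.92% of 8552 protein-coding genes that rose and 1.88% that fell. The median log2 fold change was 0.24 over the members and 0.0044 over all genes tested. The comparison shares the anti-CD3 isotype libraries with the first one. The summed T cell and CD8 markers were also higher with anti-LAIR-1 (2556 to 2919 against 2003 to 2184 CPM), and their part in these values was not tested.

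For Pik3ip1, the level with anti-CD3 went from 4.17 ± 1.32 CPM with isotype to 9.72 ± 3.31 CPM with anti-LAIR-1 (mean ± SD, n = 3 each), beside 96.0 ± 6.08 CPM in unstimulated cells. The log2 fold change was 1.14 (SE 0.31, edgeR adjusted p = 0.0377), and within mice 1 to 3 the difference in log2 CPM was 1.03, 1.17 and 1.15. It exceeded that of 99.1% of the protein-coding genes tested. The call rested on low counts, with means of 20.7 and 56.3 counts per library. It was lost without mouse 1 of the isotype group (0.96, edgeR adjusted p = 0.110), without mouse 2 (1.32, edgeR adjusted p = 0.0599) or mouse 3 (1.18, edgeR adjusted p = 0.0951), and without mouse 2 (0.90, edgeR adjusted p = 0.191) or mouse 3 (1.07, edgeR adjusted p = 0.103) of the anti-LAIR-1 group. Without mouse 1 of the anti-LAIR-1 group it was 1.42 (edgeR adjusted p = 0.0078).

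Akt1 with anti-CD3 was at 166 ± 4.02 CPM with isotype and 200.3 ± 8.42 CPM with anti-LAIR-1 (mean ± SD, n = 3 each). The log2 fold change was 0.27 (SE 0.074, edgeR adjusted p = 0.0424), and the differences in log2 CPM within the mice were 0.24, 0.25 and 0.33. The groups did not overlap. The call was lost when any 1 of the 6 libraries was left out: without mouse 1, 2 or 3 of the isotype group, the edgeR adjusted p was 0.124, 0.0776 or 0.117, and without mouse 1, 2 or 3 of the anti-LAIR-1 group, it was 0.0513, 0.139 or 0.133. Its change stayed between 0.24 and 0.30 in these fits.

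Of the members that did not pass, Tsc2 had a log2 fold change of 0.31 (SE 0.10, edgeR adjusted p = 0.0898) and Pik3r1 of 0.32 (SE 0.24, edgeR adjusted p = 0.540). Pik3cd was at 0.24 (SE 0.13, edgeR adjusted p = 0.315) and Akt2 at 0.20 (SE 0.086, edgeR adjusted p = 0.222). The difference was positive in each of the 3 mice for all 4 genes, and the share of all genes with this pattern was not counted. Values for Tsc1, Mtor and Rptor were 0.078, -0.074 and 0.0084 and had no common sign among the mice (edgeR adjusted p = 0.899, 0.883 and 0.991).

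**Figure D3:**
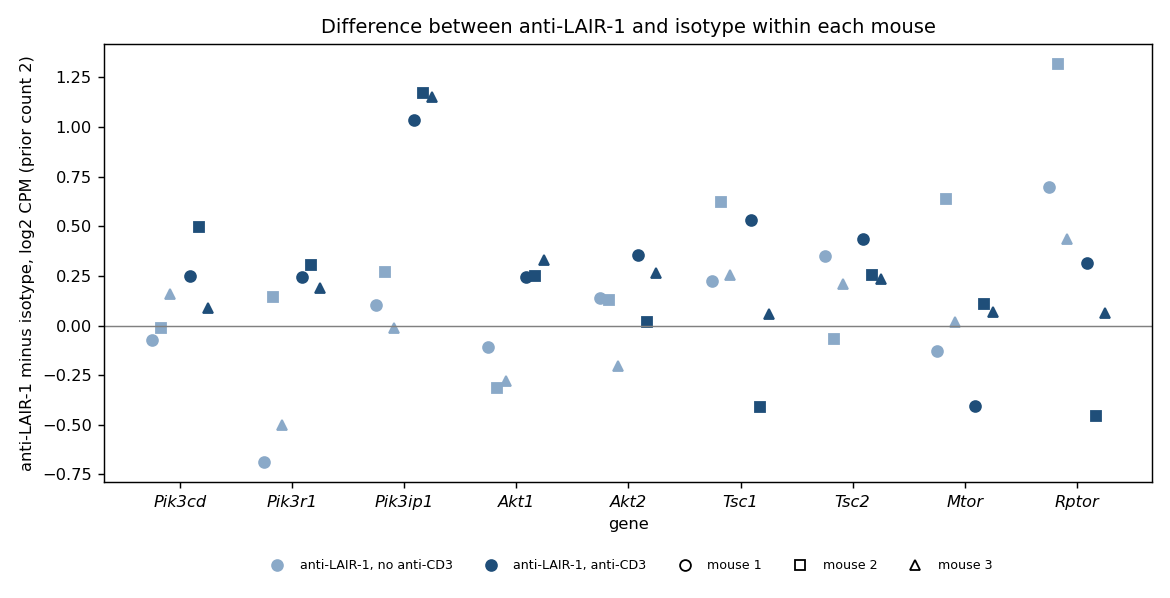
Change in log2 CPM (vertical axis, prior count 2) from isotype to anti-LAIR-1 within each of 3 mice, without anti-CD3 (light) and with anti-CD3 (dark). Pik3ip1 with anti-CD3 lies between 1.03 and 1.17 in the 3 mice, and Akt1 lies above 0 with anti-CD3 and below 0 without it.

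In unstimulated cells, none of the 9 members passed the test for anti-LAIR-1 against isotype in edgeR, and 0% of 8513 protein-coding genes rose or fell. DESeq2 likewise called 0 genes. At an unadjusted p under 0.05, edgeR found 365 genes, or 4.29%, and 2 members among them. These were Akt1, at a log2 fold change of -0.24 (SE 0.10), and Rptor, at 0.86 or 1.82-fold (SE 0.33), and the edgeR adjusted p was 0.997 for both. The ranges of the 2 groups did not overlap for Akt1, Tsc1 and Rptor, and the share of all genes without overlap was not counted. For Akt1 the gap was narrow, with at most 139 CPM under anti-LAIR-1 and at least 140 CPM under isotype. Tsc1 was at 0.37 (SE 0.22), and Pik3cd, Pik3r1, Pik3ip1, Akt2, Tsc2 and Mtor were at 0.017, -0.36, 0.12, 0.023, 0.16 and 0.18.

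Whether the effect of anti-LAIR-1 depended on anti-CD3 was tested as an interaction over all 12 libraries. Akt1 passed: its log2 fold change with anti-LAIR-1 was higher by 0.51 with anti-CD3 than without (SE 0.13, edgeR adjusted p = 0.0330), going from -0.24 to 0.27. The same interaction gives the difference between the anti-CD3 responses of Akt1 with anti-LAIR-1 and with isotype. In all, 1 member of 9 was higher and 0 lower, beside 1.84% and 0.246% of 8929 protein-coding genes.

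The interaction of Akt1 did not pass without mouse 2 or 3 of the unstimulated isotype group (edgeR adjusted p = 0.0982 and 0.0739) or without mouse 1, 2 or 3 of the unstimulated anti-LAIR-1 group (0.0927, 0.0545 and 0.0588). It also did not pass without mouse 1, 2 or 3 of the anti-CD3 isotype group (edgeR adjusted p = 0.0827, 0.0661 and 0.0720) or mouse 2 or 3 of the anti-CD3 anti-LAIR-1 group (0.0797 and 0.0956). The size of the interaction was 0.45 to 0.60 when each of the 12 libraries was left out in turn.

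For Pik3ip1 the interaction was 1.00 (SE 0.29, edgeR adjusted p = 0.0768). With the mouse as a block it was 1.03 and passed (SE 0.28, edgeR adjusted p = 0.0441), which brought the members called to 2. The interaction of Pik3r1 was 0.69 (SE 0.32, edgeR adjusted p = 0.361) and that of Rptor was -0.86 (SE 0.41, edgeR adjusted p = 0.399). Pik3cd, Akt2, Tsc1, Tsc2 and Mtor were at 0.23, 0.18, -0.29, 0.15 and -0.25, with edgeR adjusted p from 0.623 to 0.808. A call of Tsc1 with anti-CD3 under anti-LAIR-1 and not with isotype was therefore not a tested difference that passed (edgeR adjusted p = 0.780).

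To place the members among other pathway genes, 83 further genes were listed by role, of which 81 were in the table. With anti-CD3 under isotype control, 11 of 66 tested rose and 35 fell, beside 35.6% and 35.8% of all protein-coding genes tested, with a median log2 fold change of -0.62. Of the other PI3K subunits, 4 of 5 tested fell, as did 6 of 8 genes of the group of AKT, its kinases and phosphatases. All 9 tested genes of the group of FOXO factors and T cell genes they drive fell, with a median of -3.76.

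Among them were Il7r, the IL-7 receptor chain (-5.95, edgeR adjusted p = 5.4e-19), S1pr1, the receptor for egress from lymphoid organs (-5.66, edgeR adjusted p = 1.7e-19), and Cdkn1b, the cell cycle inhibitor p27 (-3.84, edgeR adjusted p = 1.9e-18). Foxo4 and the transcription factor Klf2 were at -3.86 and -3.74. Of the genes of nutrient sensing to mTORC1, 7 of 21 rose and 6 fell, shares near those of all protein-coding genes (35.6% and 35.8%). The risers included Sec13 (1.25) and Seh1l (1.01), both subunits of the GATOR2 complex and of the nuclear pore, Mios of GATOR2 (0.99) and the GTPase Rraga (0.86). Rheb, the direct activator of mTORC1, rose by 0.97 (edgeR adjusted p = 5.1e-08), and Larp1, an mTORC1 substrate that binds mRNAs of the translation machinery, rose by 1.96 (edgeR adjusted p = 4.5e-14).

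With anti-LAIR-1, 13 of 66 of these genes rose with anti-CD3 and 36 fell, beside 36.8% and 36.1% of all protein-coding genes. The 6 highest were Larp1 (1.82), Sec13 (1.34), Eif4ebp1 (1.18), Seh1l (1.17), Rheb (1.08) and Rraga (0.79), and among the 6 lowest were Il7r (-4.75), S1pr1 (-3.72), Klf2 (-3.03), Foxo4 (-2.78) and Cdkn1b (-2.75). Eif4ebp1 encodes a repressor of cap-dependent translation that mTORC1 inactivates.

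**Figure D4:**
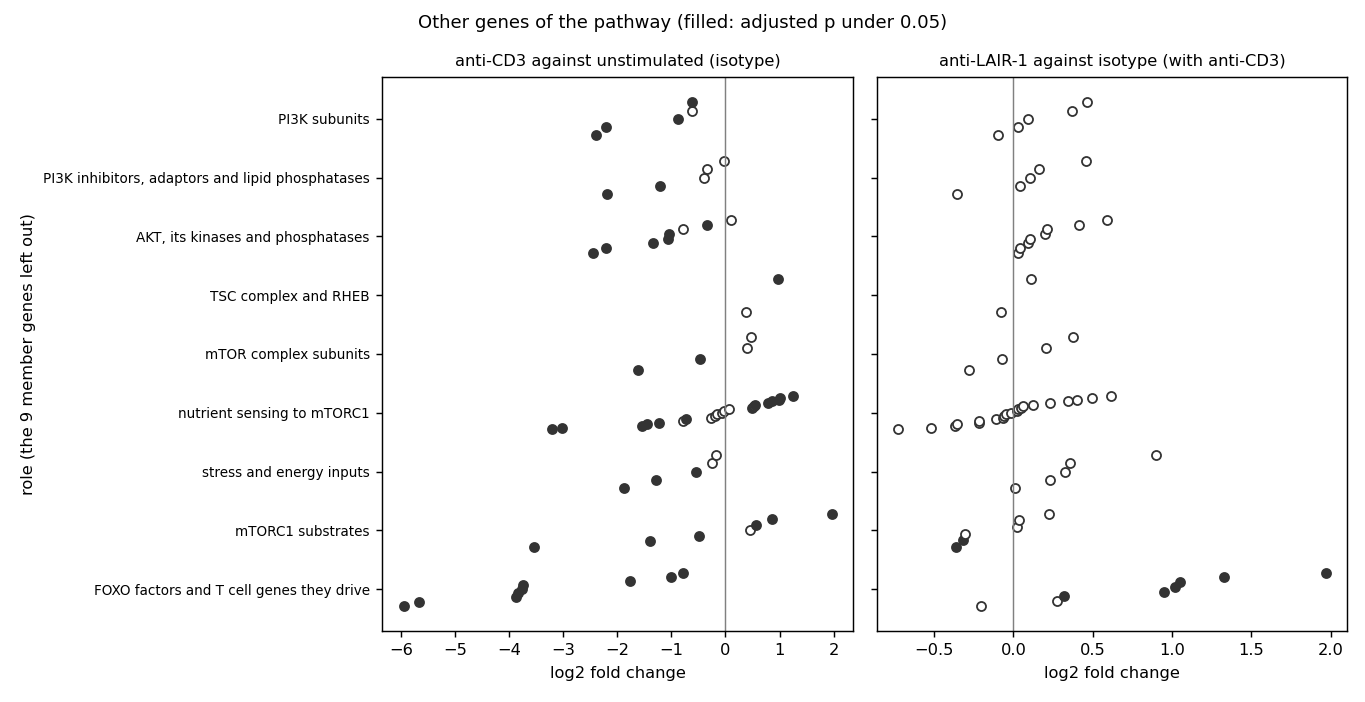
Log2 fold changes (horizontal axes) of the other pathway genes by role, with anti-CD3 under isotype control (left, 66 genes) and with anti-LAIR-1 in the anti-CD3 libraries (right, 64 genes); filled points passed an adjusted p of 0.05 in edgeR. On the left 35 genes fell and 11 rose, and on the right the filled points above 0 are 6 genes of the FOXO group.

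For anti-LAIR-1 in stimulated cells, 6 of 64 of these genes rose and 2 fell, beside 3.92% and 1.88% of all protein-coding genes. The 6 that rose were of the FOXO group, of which 8 genes were tested, with a median of 0.98. The other 2 tested, Foxo1 and Ccr7, did not pass. Foxo1 was at 69.8 ± 0.980 CPM with isotype and 84.7 ± 3.55 CPM with anti-LAIR-1 (mean ± SD, n = 3 each). Ccr7 was lower with anti-LAIR-1, at 178 ± 34.4 and 156 ± 17.5 CPM in the same order. Beside S1pr1 (1.97), the 6 that rose included Il7r (1.33, edgeR adjusted p = 0.0012), Cdkn1b (1.05, edgeR adjusted p = 3.5e-05), Klf2 (1.02, edgeR adjusted p = 2.8e-05) and Bcl2l11. Bcl2l11, which encodes the death-promoting protein BIM, was at 0.32 (edgeR adjusted p = 0.0477), and did not pass with the mouse as a block (edgeR adjusted p = 0.0558). The levels with anti-CD3 stayed below those of unstimulated cells: Il7r was at 5.48 ± 0.432 CPM with isotype and 13.8 ± 1.85 CPM with anti-LAIR-1, and at 327 ± 51.9 CPM in unstimulated isotype cells (mean ± SD, n = 3 each).

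The 2 genes that fell, a count near the share over all genes, are listed among the mTORC1 substrates. Rps6kb1, the S6 kinase, fell by 0.36 (SE 0.098, edgeR adjusted p = 0.0376), from 105 ± 11.9 CPM to 82.0 ± 7.11 CPM (mean ± SD, n = 3 each). Larp1 fell by 0.32 (SE 0.089, edgeR adjusted p = 0.0436), from 1183 ± 183 CPM to 955 ± 49.6 CPM (mean ± SD, n = 3 each). Within mice 1 to 3 the differences in log2 CPM were -0.029, -0.43 and -0.59 for Rps6kb1 and -0.031, -0.51 and -0.35 for Larp1. Rps6kb1 and Larp1 passed in 9 and 11 of 16 other settings. Without mouse 2 or 3 of either group, 5 of these genes were called in place of 8. The groups of PI3K subunits, of inhibitors, adaptors and lipid phosphatases, and of AKT and its regulators had 0 of 5, 0 of 5 and 0 of 8 genes called.

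Without anti-CD3, 0 of 65 genes passed for anti-LAIR-1 in edgeR. The interaction was positive and past the threshold for 5 of 68, and negative for 0, beside 1.84% and 0.246% of all protein-coding genes tested. All 5 were from the FOXO group, of which 4 of 9 tested genes were not called. The 5 included S1pr1 (1.92), Il7r (1.17), Cdkn1b (1.06) and Klf2 (0.69). The edgeR adjusted p was 0.010 for Il7r, 5.1e-05 for Cdkn1b, and 0.0417 for Klf2, which passed in 10 of 21 other settings. Within mice 1 to 3 the interaction of Klf2 was 0.018, 1.18 and 0.89.

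Genes with the pattern most like each changing member were taken by Pearson r of log2 CPM over the 12 libraries, among 9222 genes. These values are dominated by the difference between the stimulated and the unstimulated libraries, and the libraries share mice and differ in depth. For Pik3ip1 they were 1810026B05Rik (r = 0.997), Ttc7 (0.996) and Rictor (0.996), the last of which encodes the scaffold of mTOR complex 2. Rictor was at 61.1 ± 1.94 CPM in unstimulated isotype cells, 20.3 ± 0.922 CPM with anti-CD3 and isotype, and 26.7 ± 3.02 CPM with anti-CD3 and anti-LAIR-1 (mean ± SD, n = 3 each). In the anti-CD3 libraries, the log2 fold change of Rictor with anti-LAIR-1 was 0.38 and did not pass (SE 0.15, edgeR adjusted p = 0.160). For Pik3cd they were Rabac1, Cox7a2l and Klf6 (0.998, 0.997 and 0.997), and for Pik3r1 they included Bace1 and Haus5 (0.977 and 0.969). For Akt1 they were Dennd2d, Ptk2b and Nab2 (0.940, 0.918 and 0.914), for Akt2 Cxcr6, Ripk3 and Usp4 (0.965, 0.964 and 0.958), and for Tsc1 Pcm1, Rnf157 and Fam76b (0.931, 0.929 and 0.929).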

How the data were processed

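RNA of 12 libraries (4 groups, mice 1 to 3) was analysed. The authors aligned CEL-seq reads with BWA to mm10, left out reads without a unique best position, and deposited raw read counts per gene symbol, which are not normalized. The BWA version, and whether molecular identifiers were collapsed, are not given in the sources used here, so limits from counts cover counting error only.

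The main test was the quasi-likelihood F-test of edgeR 4.0.16 (R 4.3.3) without a block, after TMM and filterByExpr, with Benjamini-Hochberg adjustment over all genes tested and a threshold of 0.05. Standard errors are the absolute log2 fold change divided by the square root of F. As in the study, counts of called genes cover protein-coding genes: GENCODE M21 and RefSeq gave a biotype for 14286 of 14323 symbols, 13173 of them coding. CPM were TMM-normalized over 12 libraries, and differences within mice used a prior count of 2. An exact two-sided permutation test of 3 against 3 libraries cannot go below 0.1 and was not used. The study names DESeq2, run here (1.42.0) as an alternative.

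Mouse numbers pair the libraries because cells of the same mouse were plated in every condition. Deviations from group means correlated between libraries of the same mouse with a mean r of 0.0265 to 0.0891 over the 4 comparisons of 2 groups. Replicates differed by 3.82 to 5.62 times the sampling variance, so none was a copy of another.

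The alternatives were DESeq2's size factors, upper quartile normalization, DESeq2, the mouse as a block in either tool, no filter, at least 10 counts in every library, all 12 libraries in 1 fit, and each library left out. A further 2 were chosen after seeing the data: every library thinned to the lowest depth, and a fit without Rn45s and mitochondrial genes. The edgeR and DESeq2 fits, with and without the block, were tested on simulated data with known changes. The 9 members and the gene lists were chosen with earlier results of these data known. Every member was named, with at most the 6 highest and 6 lowest called genes of the wider list that moved the same way in all 3 mice, and the 3 genes most like each changing member. Of the genes this rule names, 2 are not reported here. Coordinates are those of GRCm38, and RefSeq promoter windows were found for 9 of 9 members.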

Additional observations from a re-analysis of the deposited data

Results flagged for a closer look

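The effect of anti-LAIR-1 on Akt1 in stimulated cells differed from that in unstimulated cells when the difference was tested directly, with an interaction of 0.51 on the log2 scale (SE 0.13, edgeR adjusted p = 0.0330). The log2 fold change was -0.24 without anti-CD3 (edgeR adjusted p = 0.997) and 0.27 with it (edgeR adjusted p = 0.0424). The first did not pass, and the second passed in 0 of 6 fits that each left out 1 library. The difference between the 2 effects had the same sign in all 3 mice. The interaction passed in 9 of 21 other settings, with adjusted p from 0.0067 (DESeq2) to 0.0982 (edgeR without mouse 2 of the unstimulated isotype group).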

How the results depend on the processing

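The falls of Pik3cd, Pik3r1 and Pik3ip1 with anti-CD3 kept their direction and passed in every other setting run, with either antibody. For anti-LAIR-1 with anti-CD3, the members called went from 2 to 1 with DESeq2, at least 10 counts in every library (which drops Pik3ip1 from the test) or all 12 libraries in 1 fit, to 0 in DESeq2 with the mouse as a block or after thinning, and to between 0 and 1 with each library left out. The other pathway genes called went from 8 to between 5 and 7 with each library left out. For the interaction, the members called went from 1 to 2 with DESeq2, edgeR with the mouse as a block or DESeq2 with the block, to 0 after thinning, and to between 0 and 2 with each library left out. In DESeq2, Akt1 with anti-LAIR-1 and anti-CD3 had an adjusted p of 0.0573, or 0.240 with the block, where Pik3ip1 had 0.106. In edgeR the block changed no call of a member other than that of Pik3ip1 in the interaction.

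The values that changed sign were all of members that had not passed. Rptor with anti-LAIR-1 and anti-CD3 was at -0.017 in DESeq2, -0.047 in edgeR with the block, -0.047 in DESeq2 with the block and -0.30 after thinning. Without mouse 3 of the isotype group, Rptor was at -0.21 and Tsc1 at -0.028, and without mouse 1 of the anti-LAIR-1 group, Rptor was at -0.23, Tsc1 at -0.13 and Mtor at 0.051. For anti-LAIR-1 without anti-CD3, leaving out mouse 1, 2 or 3 of the isotype group gave Akt2 at -0.020, Akt2 at -0.011 or Pik3cd at -0.033. For anti-CD3 with isotype, Akt1 was at -0.15 with the upper quartile, -0.030 with at least 10 counts, -0.046 after thinning and -0.067 without mouse 1 of the unstimulated group. Mtor there was at -0.097 with the upper quartile, -0.089 after thinning and -0.039 without mouse 2 of the unstimulated group. The cause was not tested. With each library left out, the highest values of these were 0.22 (Rptor) and 0.24 (Tsc1), and the lowest of Mtor -0.19, for anti-LAIR-1 with anti-CD3, 0.052 (Pik3cd) and 0.10 (Akt2) for anti-LAIR-1 without anti-CD3, and 0.065 (Akt1) and 0.18 (Mtor) for anti-CD3 with isotype. Counts were low for Pik3ip1 with anti-CD3 and isotype (mean 20.7 per library) and for Rptor in unstimulated isotype cells (mean 13).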
